A study of Mus musculus with 16 samples.

Results

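The comparison set a spliced MUNC RNA that lacks the CH1 segment (dCH1) against the intact spliced RNA. Both were probed by SHAPE-MaP after extraction from the cells, the state called cell-free here. Its members were 6 of the 16 libraries of the study, namely 1 pair of 5NIA and DMSO libraries for the CH1 deletion and 2 such pairs for intact spliced MUNC. All came from C2C12 mouse myoblasts, in the protocol C2C12 PAX7 NEG cells, that overexpressed the respective RNA, and the labels do not give a vector, promoter or clone. 5NIA was used at 25 mM, and DMSO is the solvent alone. A pair gives 1 reactivity profile, so the CH1 deletion has 1 profile and the intact RNA 2. A CH4 deletion profile of 1 pair, treated in the same way, is quoted beside some values. The labels do not say whether the spliced replicates came from separate cultures, and their spread may therefore be technical.

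MUNC (RefSeq symbol Gm45923, also DRReRNA) is a long non-coding RNA of muscle cells, made near the Myod1 gene and known for promoting the expression of myogenic genes. SHAPE reagents acylate the ribose of flexible nucleotides. In SHAPE-MaP the adducts are read as mutations during reverse transcription, so unpaired nucleotides tend to have high reactivity and those held in helices low reactivity. Pairing probabilities come from a folding calculation that can take such reactivities as pseudo-energies, and they are model output rather than measurements.

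The intact RNA had 518 residues and the deletion RNA 489. Aligning them placed the 29 missing residues at 6 to 34 or, with the same letters, at 7 to 35, and 6 to 34 was used. All positions below are counted from 1 at the 5′ end of the intact spliced RNA, so that a residue n of the deletion RNA above 5 is residue n + 29. The following stretches, read from the deposited sequences, carry the results. The first is the deleted segment with the strands of its hairpin in capitals. The next line holds a pair of guanine runs (capitals), and the third the strand with which residues 55 to 70 pair in the intact RNA (paired residues in capitals). The last line is the start of the deletion RNA across the junction, with the first guanine run in capitals.
Deleted segment, residues 6 to 34: UAGCaCCUUGGaagacuagCCAAGGgaGC
Guanine runs, residues 50 to 92: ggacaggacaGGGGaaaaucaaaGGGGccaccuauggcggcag
Opposite strand, residues 155 to 175: uaUGAUgaaCCCCacaUCCau
Start of the deletion RNA, own residues 1 to 34: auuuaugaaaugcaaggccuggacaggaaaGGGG

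Reactivity could be compared at 434 residues, 60 to 493, all with an effective depth of at least 1000 in each library. The primer sites took the first 25 and last 25 residues of the intact RNA. In the deletion RNA they took its first 30 residues, so that residues 26 to 59, 34 in all, were measured in the intact RNA alone. Nothing within 25 residues downstream of the junction was therefore measured in the deletion RNA. The median effective depth was 142902 (5NIA) and 177740 (DMSO) for the CH1 deletion, and ran from 32424.5 to 211893 in the spliced libraries. The CH1 deletion profile stood apart in its raw rates. Its mean 5NIA mutation rate was 0.658%, against 1.49% and 2.02% in the spliced replicates, while its mean DMSO rate of 0.158% lay close to the 0.170% of replicate 1 and below the 0.319% of replicate 2. The authors' factor that turns a rate difference into reactivity was 104 for the deletion and 37.4 and 28.9 for the replicates, so that a rate difference of the same size weighs more in the deletion profile. The 5NIA rate lay below the DMSO rate at 28 residues of the deletion, and at 2 and 19 in the replicates. What part the lower rate had in the differences below was not tested beyond the rescaled values given with them.

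The CH1 segment was a hairpin closed on itself. In the mean of both spliced models it held 2 helices, residues 6 to 9 with 33 to 36 at a mean pair probability of 0.938 and residues 11 to 16 with 25 to 30 at 0.988. Its only partners outside the segment with a probability above 0.5 were U35 (0.986) and G36 (0.783). Counting partners inside and outside the segment, its residues were paired with a mean probability of 0.613, and the next partner outside, A39, reached 0.00584. Reactivity could be read at the last 9 residues of the segment, and there its mean was 0.312 in replicate 1 and 0.352 in replicate 2. The unpaired residues 31 and 32 had means of 0.729 and 0.845. The paired residues 26 to 30 had means of 0.261 and 0.274, with single residues up to 0.612 and 0.627, and the paired residues 33 and 34 had means of 0.0241 and 0.0564. No residue beyond 36 had a stable partner in the segment, so the deletion removed no modelled pair between residues beyond 36.

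Although no partner was removed from it, the 5′ part of the RNA lost helices in the deletion model. In the 3′ part the helices were kept, and the new ones with both strands there were already pairs of spliced replicate 1. Helices were defined as at least 3 directly stacked pairs with a probability of 0.5 or more, and were called lost or new when no pair reached 0.5 in the other model. Of the 20 helices of the mean spliced model that lay outside the segment, 7 were lost (35%) and 13 kept, and the deletion model had 10 new ones. Set against single replicate models, the deletion model lacked 10 of 25 helices of replicate 1 and 12 of 25 of replicate 2, so that the count rose from 7 to 12 without replicate 1. Between the replicates themselves the same rule called 6 of 25 helices of replicate 1 lost (24%), and 5 of 25 of replicate 2. All 7 lost helices had both strands at or below residue 173. Among helices that start between residues 35 and 230, 7 of 9 of the spliced model were absent from the deletion model, against 2 of 12 and 5 of 15 between the replicates in either order. Among those that start at residue 231 or beyond, the counts were 0 of 11, against 4 of 13 and 0 of 10. The mean model can leave out helices on which the replicates disagree, so its counts are not like for like with theirs. In the reverse direction, 8 of 10 helices of the deletion model that start between 35 and 230 were absent from the mean spliced model, and 2 of 13 of those that start beyond. The border at residue 230 was chosen after the values were seen.

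**Figure D1:**
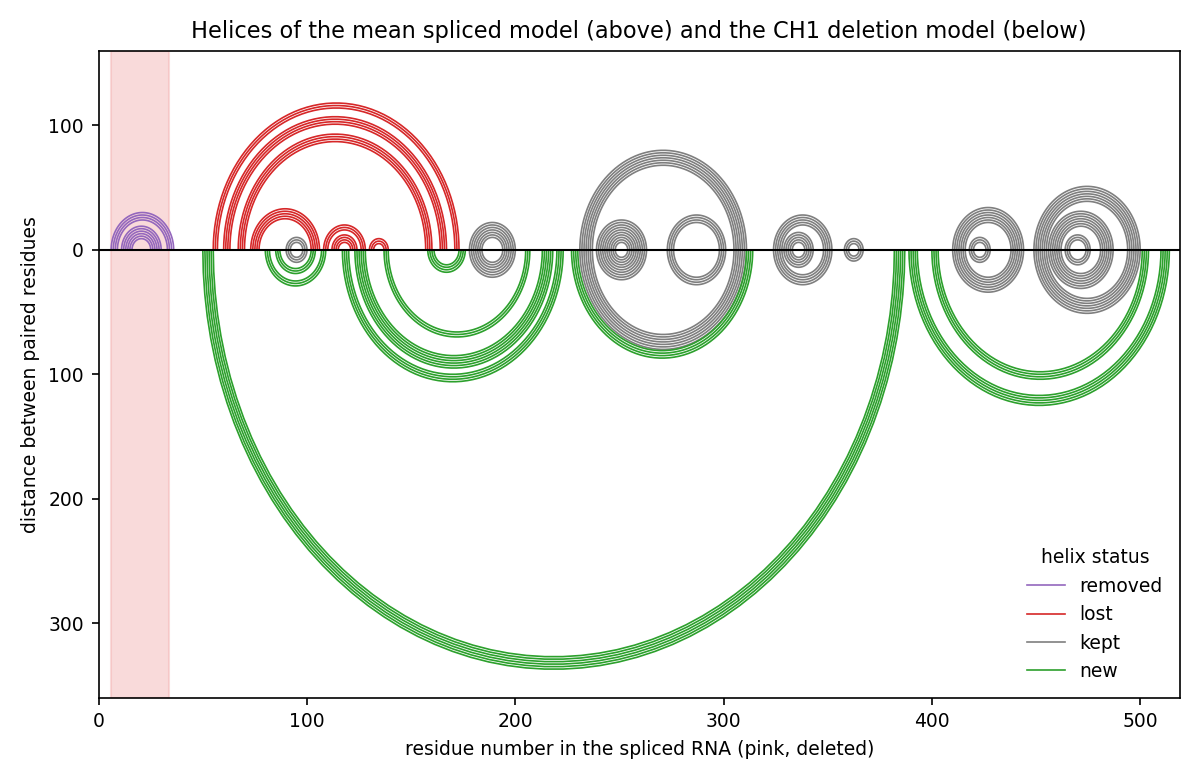
Helices of the mean spliced model (arcs above the line) and of the CH1 deletion model (arcs below), each arc 1 base pair, plotted by residue number, with arc height set by the distance between the paired residues; colours mark the 2 helices removed with the segment, the 7 lost, the 13 kept and the 10 new. The lost arcs lie between residues 55 and 173, and the tall new arc joins residues 50 to 55 with 382 to 387.

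Each of the 7 lost helices was present in both replicate models, in the model of the joined replicates and in the CH4 deletion model. An outer stem of 3 helices was among them. Its middle helix, in which the first guanine run (60 to 63) faces the cytosines at 164 to 167, had a mean probability of 0.997 and 0.982 in the replicates and 0.0226 in the deletion. Below it, residues 55 to 57 with 171 to 173 had 0.939 and 0.828 against 0.00747. Above it, residues 67 to 70 with 157 to 160 had 0.955 and 0.899 against 0.0198. This stem thus went from near certainty to near absence in the models. Inside it, the second guanine run formed the helix of residues 73 to 77 with 102 to 106, at 0.795 and 0.805 in the replicates and 0.156 in the deletion. The hairpin of residues 108 to 110 with 126 to 128 went from 0.902 and 0.830 to 0.0205, and that of 112 to 115 with 121 to 124 from 0.848 and 0.739 to 0.0175. A small hairpin, 130 to 132 with 137 to 139, kept part of its probability, 0.813 and 0.825 against 0.389.

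The deletion model paired some of these residues with other partners and left others mostly unpaired, such as C164 to C167 (0.0289 to 0.0362 for any partner). At residues 60 to 230, 29 measured residues were paired in the spliced model only and 23 in the deletion model only. Of its 10 new helices, 7 had no pair in either spliced model. The longest in span joined residues 50 to 55 with 382 to 387, over 337 residues, at a mean probability of 0.975, against 0.00323 and 0.0428 in the replicates. Its first strand lies in the primer site of the deletion RNA, so the deletion profile held no reactivity for it. The strands of that helix, and of a further pair of new helices that lie side by side, are these, with the paired residues in capitals.
Residues 48 to 57: cuGGACAGga
Residues 380 to 389: gaCUGUUCau
Residues 115 to 130: cuGUGCgcUUCUCCag
Residues 211 to 225: ugGGAGAGaGCACgu
The last 2 strands form the helices of 117 to 120 with 220 to 223 (0.842 in the deletion, 0.00173 and 0.0124 in the replicates) and of 123 to 128 with 213 to 218 (0.909, against 0.00164 and 0.0126). Residues 137 to 139 with 205 to 207 reached only 0.502. Shorter new helices were 80 to 82 with 107 to 109 (0.765), 85 to 87 with 102 to 104 (0.752) and 158 to 161 with 173 to 176 (0.798), each at 0.0410 or less in both replicates. The other 3 new helices had one or both strands beyond residue 230 and were already pairs of a single replicate model. Residues 227 to 230 with 311 to 314 (0.641 in the deletion) had 0.543 in replicate 2 and 0.205 in replicate 1. Residues 389 to 393 with 510 to 514 (0.908) had 0.694 in replicate 1 and 0.149 in replicate 2, and residues 400 to 403 with 501 to 504 (0.855) had 0.681 and 0.151. These 3 are not separable from the difference between the replicates.

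Among the kept helices, the longest was a hairpin of 10 pairs, residues 239 to 248 with 254 to 263, at 0.866 and 0.999 in the replicates and 0.968 in the deletion. The next places were tied between 5 helices of 7 pairs. Of these, 178 to 184 with 194 to 200 had 0.971 and 0.969 against 0.980, 456 to 462 with 481 to 487 had 0.928 and 0.999 against 1.000, and 449 to 455 with 494 to 500 had 0.828 and 0.972 against 0.932. Residues 231 to 237 with 305 to 311 had 0.831 and 0.957 against 0.903. The remaining one, 410 to 416 with 438 to 444, had 0.723 and 0.686 against 0.962 and so stood higher in the deletion. The first of these hairpins in sequence order sits just after the region where helices were lost.
Kept hairpin, residues 178 to 200, strands in capitals: GCAGCAUacuguuggaAUGUUGC
Kept hairpin, residues 239 to 263, strands in capitals: GCCUCUGCUUugccuGGGCAGAGGC

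Counted by pair, with both residues between 35 and 230, the mean spliced model had 40 pairs at 0.5 or more and the deletion model 37, of which 12 were shared. The replicates had 44 and 41 and shared 40, and the CH4 deletion had 45 and shared 40 with the mean spliced model. With both residues at 231 or beyond, 62 pairs were shared of 65 in the spliced and 74 in the deletion model, and the replicates shared 59 of 80 and 60. The summed pairing probability of a residue, which is the chance that it is paired at all, moved less than the choice of partner. Within 50 residues of the deletion its mean was 0.540 and 0.550 in the replicates and 0.399 in the deletion, a difference of -0.146. Beyond 50 residues it was 0.558 and 0.549 against 0.546, a difference of -0.00708. The mean absolute change was 0.308 near the deletion, where the replicates differed by 0.0669, and 0.136 beyond, where they differed by 0.0772. The near residues include 35 to 59, in the primer site of the deletion RNA, where its profile held no reactivity. At those the absolute change was 0.368 (0.110 between replicates) and the signed one -0.142. At the measured residues 60 to 84 they were 0.249 (0.0237 between replicates) and -0.150. From 35 to 230 it was 0.268 against 0.0562 between replicates, and from 231 to 518 it was 0.0759 against 0.0897, so in the 3′ part the deletion stood no further from the intact RNA than the replicates from each other.

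The measured reactivities were compared residue by residue, on a scale that the helix counts do not share. Over the 434 residues Pearson's r was 0.917 with replicate 1 and 0.909 with replicate 2, and 0.944 between the replicates. Spearman's rank correlation was 0.878 and 0.823, and 0.911 between the replicates. At residues 60 to 84 it was 0.727 and 0.655, and 0.824 between the replicates. At residues 435 to 484, far from the deletion, it was 0.736 and 0.759, and 0.859 between the replicates. These are correlations across residues of 1 RNA, which share libraries and base composition. A residue was taken to differ by size when it was at least 0.5 from the spliced mean and the difference was also larger than a limit set by the summed standard errors, which cover counting error only. This rule has no test behind it. It was met by 14 of 434 residues (3.23%), 7 higher (1.61%) and 7 lower (1.61%) in the deletion, and by 8 residues (1.84%) between the replicates themselves. The split by direction moved with the scaling of the profiles, to 5 higher and 8 lower when they were scaled to an equal mean and to 1 higher and 11 lower at an equal median, with 12 and 8 of the 14 residues among those calls. Taken against a single replicate, 12 residues met it with replicate 1 and 25 with replicate 2, and 5 met it against each and against the mean. The CH4 deletion met it at 7 of 407 residues (1.72%). All 14 residues lay outside the range of the replicates, which the rule nearly fixes in advance. A residue at least 0.5 from the mean lies within that range only where the replicates differ widely. Adenines made up 7 of the 14, of 122 adenines measured. Only G63 lay within 50 residues of the deletion.

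**Figure D2:**
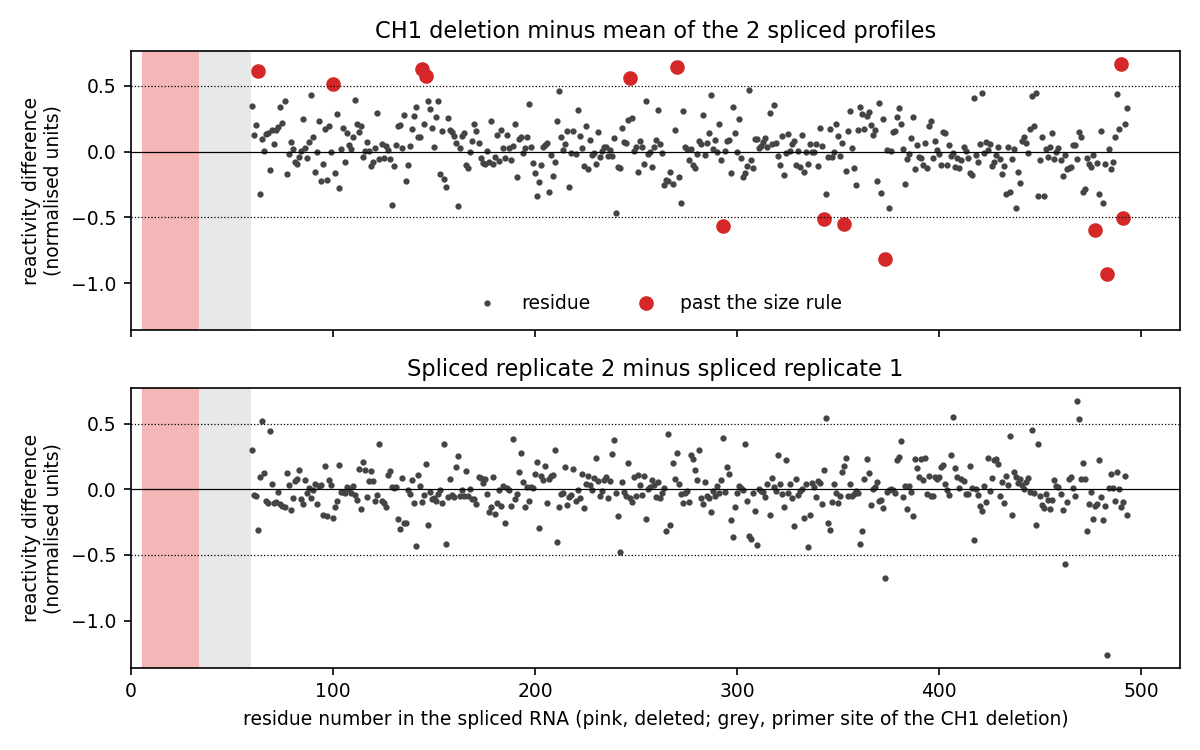
Reactivity difference at each of the 434 residues, in normalised units, for the CH1 deletion minus the mean of both spliced profiles (upper panel, the 14 residues past the size rule in red) and for spliced replicate 2 minus replicate 1 (lower panel). Dotted lines stand at 0.5 and -0.5; of the red points, 1 lies within 50 residues of the deletion, and the largest differences of both panels are at residue 483.

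The mean absolute difference did not depend on the distance in any clear way. At residues 60 to 84, the measured ones within 50 of the deletion, it was 0.166, with 0.138 between the replicates. Beyond them it was 0.149, with 0.122 between the replicates. In windows of 50 residues it ran from 0.101 (385 to 434) to 0.191 (335 to 384). The near residues were on the whole more reactive in the deletion, with a mean of 0.612 against 0.505 and 0.524. This was not particular to them, as residues 135 to 184 had 0.650 against 0.579 and 0.542. Residues 435 to 484 went the other way, with 0.346 against 0.427 and 0.409.

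The lower residues were all in the 3′ part. A483 had 1.78 and 0.522 in the replicates and 0.221 in the deletion, a difference of -0.932, but replicate 2 minus replicate 1 was -1.26 (SD 0.892, n = 2), and without replicate 1 the difference was -0.301. A373 had 2.06 and 1.38 (SD 0.477, n = 2) against 0.905. C477 had 1.14 and 1.01 against 0.482. In the last of these the replicates lay close together and the deletion well below, whereas at A483 and A373 the replicates were spread widely. A293 had 1.68 and 2.07 against 1.31. A353, the most reactive of the lower residues, had 2.98 and 3.16 against 2.52. A343 had 0.776 and 0.922 against 0.338, and in the kept helix of residues 329 to 333 with 339 to 343 it was the 3′ end. C491 had 1.35 and 1.25 against 0.801, a difference of -0.501, and was the member just inside the rule, while G306, with 0.366 and 0.00710 against 0.660, was just outside at 0.473. In the CH4 deletion A483 (0.193), A373 (1.01) and C491 (0.602) were low too, so that the lower value there was seen in both deletion profiles.

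The higher residues lay along the whole RNA. G490 had 1.40 and 1.26 in the replicates and 2.00 in the deletion, a difference of 0.671. A270 had 1.68 and 1.955 against 2.46. G144 had 1.05 and 0.961 against 1.64. At these residues every profile was reactive, and the deletion simply the most. G63 had 0.378 and 0.0681 against 0.835 and, in the CH4 deletion, -0.0551. A146 had 1.33 and 1.53 against 2.01, and U247 0.469 and 0.400 against 0.995. Residue 247 lies in the 10-pair hairpin that the models kept, near its loop. G100 had 0.503 and 0.286 against 0.908, and belongs to the kept helix of residues 90 to 92 with 98 to 100. With the profiles scaled to an equal median, G63 (0.514) was the only one of these 7 still past the rule.

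**Figure D3:**
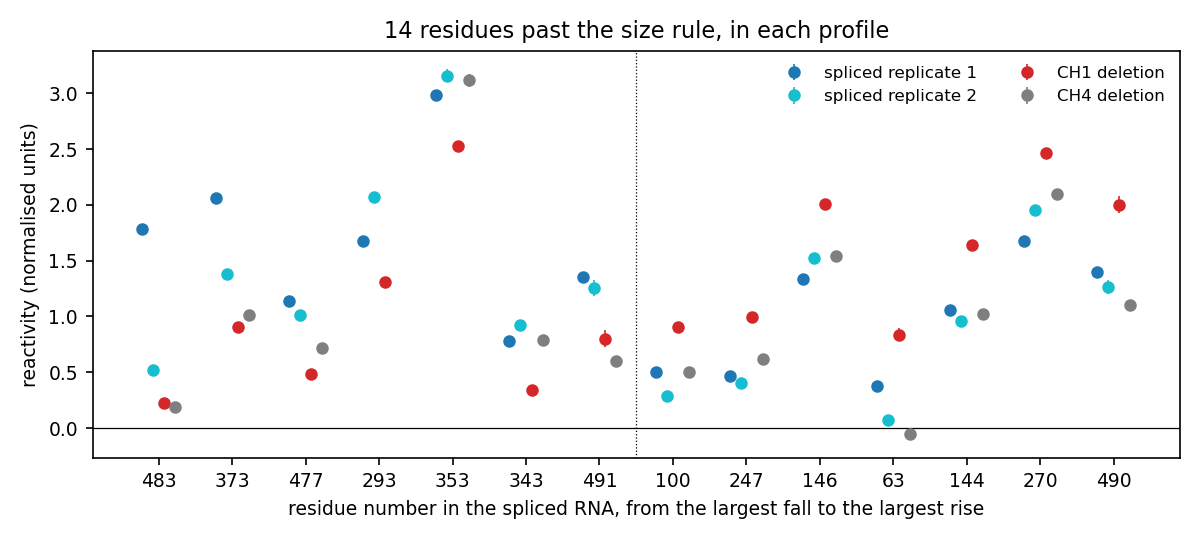
Normalised reactivity of the 14 residues past the size rule in each of 4 profiles, ordered from the largest fall (residue 483) to the largest rise (residue 490); error bars are the authors' standard errors, which cover counting error only, and most are smaller than the points. The CH1 deletion lies below both spliced replicates at the 7 residues left of the dotted line and above both at the 7 to the right.

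A moderated test in limma set the single deletion profile against both spliced profiles. It has 1 residual degree of freedom and assumes that the deletion would vary like the spliced replicates. The prior degrees of freedom were estimated as infinite, so each SE below is the trend value at that level of reactivity. The spread of a residue's own replicates got no weight in it, also at A483, where the replicates differed widely. It called 30 of 434 residues at an adjusted p under 0.05 (6.91%), 20 that rose (4.61%) and 10 that fell (2.3%), with 93 under an unadjusted 0.05. With the profiles scaled to an equal mean it called 23, of which 13 rose and 10 fell. The calls depended on pooling the spread along the level of reactivity. Without that trend limma called 0 residues (61 unadjusted), with reactivities held between 0 and 2 it called 0 (59 unadjusted), and edgeR's quasi-likelihood test on the mutation counts called only G144 (adjusted p = 0.0419, 48 unadjusted). An exact permutation test of 1 profile against 2 cannot go below 0.333, so it cannot reach 0.05 for any residue. Only 4 of the 14 residues above were called by limma with the trend, G63 (0.612 ± 0.134 SE, adjusted p = 0.000325), A483 (-0.932 ± 0.207, 0.000370), U247 (0.561 ± 0.169, 0.0194) and G100 (0.514 ± 0.159, 0.0240). The other 26 calls had differences under 0.5, at residues where the replicates were pooled to a small spread.

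Guanines made up most of the rises. limma called 16 of 114 guanines, 15 of them higher, against 2 of 122 adenines, 7 of 104 cytosines and 5 of 94 uridines. Within residues 60 to 84 it called 6 of 25, and all 6 were guanines that rose, of 8 guanines there. Those 8 are exactly the guanine runs shown above, which were picked out after the values were seen. In the run at 60 to 63 the mean reactivity was 0.0997 in replicate 1, 0.0741 in replicate 2, -0.0310 in the CH4 deletion and 0.409 in the CH1 deletion. In the run at 73 to 76 it was 0.0799, -0.0199, 0.00296 and 0.313. All 8 guanines lay above both spliced replicates, as did 62 of all 114 guanines and 30 of the 48 at residues 60 to 230. With 1 profile against 2, a value above both is thus common. G76, with 0.0466 and -0.0901 against 0.361, had the lowest adjusted p of the 8 in limma, 4.99e-06, and was not called by edgeR.

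The mutation rates behind these values were as follows. In the run at 60 to 63 the mean 5NIA rate was 0.815% in the CH1 deletion, below the 0.856% and 1.26% of the replicates, and the DMSO rate was 0.422% against 0.590% and 1.01%. In the run at 73 to 76 the 5NIA rate was 0.454% against 0.491% and 0.451%, and the DMSO rate 0.153% against 0.278% and 0.520%. The 5NIA rates were thus not higher in the deletion than in both replicates at either run, while the DMSO rates were lower. The difference of the rates, before the authors' factor, was above both replicates at 2 of 4 and 3 of 4 guanines. Scaling the profiles to an equal mean left the mean differences of the runs at 0.301 and 0.267, from 0.322 and 0.283. Over all 114 guanines the mean difference was 0.0885, against 0.0438 for uridines, -0.00342 for adenines and -0.0171 for cytosines. At an equal median these means were 0.0337 for guanines, 0.00990 for uridines, -0.119 for adenines and -0.0431 for cytosines, with the same signs but with adenines now below cytosines. What part the DMSO background had in the guanine values was not tested.

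**Figure D4:**
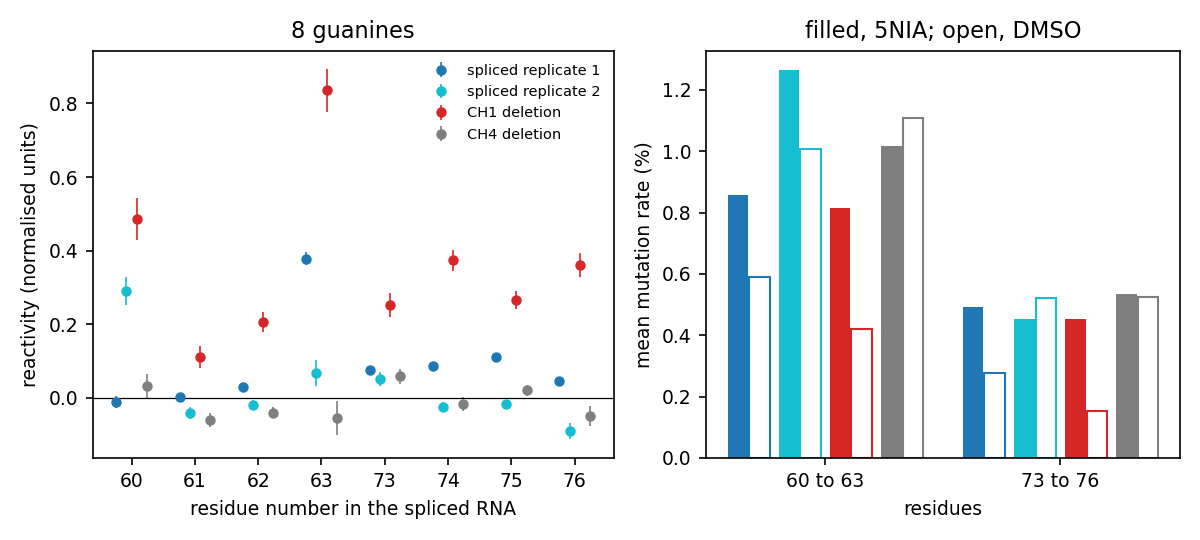
Left, normalised reactivity of the 8 guanines of the runs at residues 60 to 63 and 73 to 76 in each profile, with the authors' standard errors. Right, mean mutation rate in percent of each run in the 5NIA (filled bars) and DMSO (open bars) libraries, in the same colours; the CH1 deletion has the lowest DMSO bars, 0.422% and 0.153%.

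Reactivities were also described by what the models paired. How reactivities entered the deposited models is not given in the sources used here, and if they did, higher reactivity at lost pairs is partly built in, so these values are no independent support for the models. The 34 measured residues paired only in the spliced model had mean reactivities of 0.342 and 0.327 in the replicates, 0.312 in the CH4 deletion and 0.461 in the CH1 deletion, and 23 of them lay above both replicates while 5 lay below. The 31 residues paired only in the deletion model had 0.343 and 0.355 in the replicates and 0.372 in the deletion, with 11 above and 10 below both. The mean difference was 0.127 for the first set and 0.0229 for the second. At an equal median it was 0.0732 and, with its sign turned, -0.0202, and 16 of 34 and 7 of 31 residues then lay above both replicates. Whether residues that gained a modelled partner were more or less reactive thus depended on the scaling. The 200 residues paired in both went from 0.264 and 0.245 to 0.276, with 89 above and 61 below both replicates. Of the 169 unpaired in both, 76 lay above and 56 below. At residues 60 to 230, 22 of the 29 paired only in the spliced model lay above both replicates. Of the 65 paired in both models there, 34 did. Among the lost helices, the one with the first guanine run had mean reactivities of 0.104 and 0.0947 against 0.265 with 6 of 8 residues above both replicates. Its guanines 60 to 63 differed by 0.346, 0.131, 0.201 and 0.612. Its cytosines 164 to 167 differed by 0.123, 0.143, -0.105 and -0.127. The deletion model still paired G61 (0.978) and G62 (0.984), with other partners, and left those cytosines at 0.0362 or less. Residues 67 to 70 with 157 to 160 had 0.343 and 0.370 against 0.481 with 7 of 8 above. Residues 73 to 77 with 102 to 106 had 0.0742 and 0.0483 against 0.172 with 7 of 10 above. In the deletion model G74, G75 and G76 were still paired, at summed probabilities of 0.781, 0.929 and 0.943. The remaining lost helices had smaller differences, from 0.315 and 0.335 against 0.356 (108 to 110 with 126 to 128) to 0.421 and 0.452 against 0.540 (112 to 115 with 121 to 124). Among the new helices, 123 to 128 with 213 to 218 had 0.257 and 0.270 against 0.265, and 117 to 120 with 220 to 223 had 0.438 and 0.459 against 0.491.

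How well each model sorted the reactivities was measured as the chance that an unpaired residue was more reactive than a paired one. At residues 60 to 230 the deletion's reactivities gave 0.770 with the deletion model and 0.741 with the spliced model. Replicate 1 gave 0.786 with the spliced and 0.749 with the deletion model, and replicate 2 gave 0.772 and 0.718. In this stretch each profile was sorted best by its own model, but the reactivities may have entered the folding, and the differences were small. At residues 231 to 493 the deletion model sorted all 3 profiles slightly better. There the deletion's reactivities gave 0.741 with it and 0.734 with the spliced model, replicate 1 gave 0.753 and 0.747, and replicate 2 gave 0.786 and 0.779.

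To see what the change of model moved with, both sequences were refolded with ViennaRNA with the reactivities exchanged, a check added after the deposited models had been compared. With its own data each RNA gave much of its deposited model. The spliced sequence held 6 of the 7 lost helices with replicate 1 and 4 with replicate 2, and the deletion sequence with its own reactivities held 0 lost and 6 of the 7 helices that were new in no spliced model. The deletion sequence given the spliced reactivities held 6 and 4 of the lost helices and 0 and 1 of the new ones, the same counts as the intact sequence. The intact sequence given the deletion's reactivities held 0 lost and 6 new. With no reactivities both sequences held 4 lost and 2 new. In these settings both sequences gave the same counts of these lost and new helices when given the same reactivities. These helices were picked from models that may have used the same reactivities, so the counts are no independent support. Of the 13 kept helices, the intact sequence held 10 and the deletion sequence 12 with the deletion's reactivities, and 6 and 5 with none. Both held 11 with replicate 1 and 13 with replicate 2. The helix of the first guanine run, for instance, reached 0.998 and 0.950 in the deletion sequence with spliced reactivities, 0.00948 in the intact sequence with the deletion's reactivities, and 0.902 (intact) and 0.964 (deletion) with none.

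**Figure D5:**
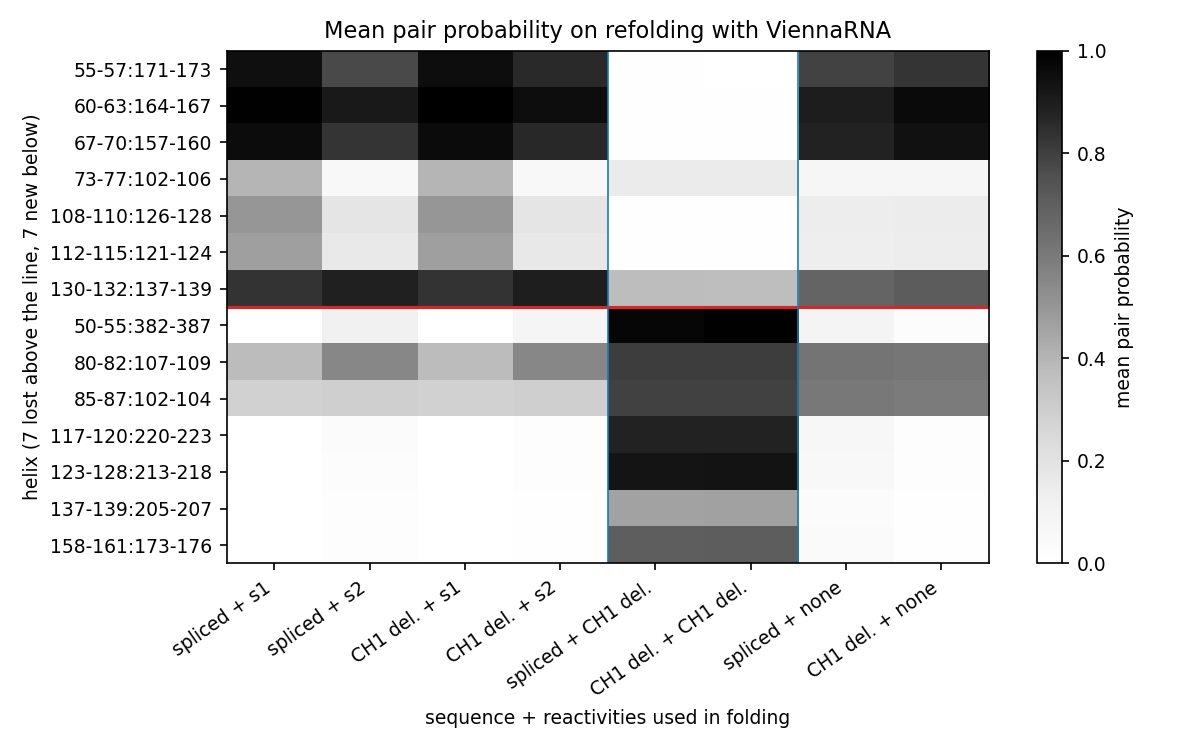
Mean pair probability (grey scale, 0 to 1) of the 7 lost helices (above the red line) and of the 7 new helices absent from both spliced models (below) on refolding with ViennaRNA; each column is a sequence plus the reactivities used (s1 and s2, spliced replicates; CH1 del., CH1 deletion). The columns with the deletion's reactivities look alike for both sequences, 0 lost and 6 new held in each.

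That exchange also removes the reactivities upstream of residue 60, where the deletion RNA has none, and the intact sequence given only the deletion's reactivities did not form the CH1 hairpin either (0.116 and 0.123 for its 2 helices). With the spliced reactivities restored at residues 26 to 59, the intact sequence formed the hairpin (0.896 and 0.990 with replicate 1, 0.865 and 0.974 with replicate 2), still held 0 lost helices, and held 5 and 6 new ones. In the deletion sequence the values given at residues 35 to 59 moved the counts with 1 of the replicates. With those of replicate 1 added to the deletion's own it held 4 lost and 0 new helices, and with those of replicate 2 it held 0 lost and 6 new. The long helix of residues 50 to 55 with 382 to 387 had 0.995 with the deletion's own data, 0.344 with replicate 1 and 0.888 with replicate 2 at those residues. In the other direction, leaving out the spliced reactivities upstream of residue 60 gave that helix 0.376 and 0.807 in the intact sequence, where it had 0.00323 and 0.111 with all of them. Replacing the reactivities of the 8 guanines with the spliced mean left 1 lost and 4 new helices held. Values at residues that the deletion profile did not measure thus moved the deletion sequence's counts with replicate 1 and not with replicate 2. In the intact sequence with the deletion's reactivities, either replicate at residues 26 to 59 left 0 lost and 5 or 6 new. Without the spliced reactivities upstream of residue 60, the intact sequence held 4 and 1 lost helices, against 6 and 4 with all of them. The cause of these shifts was not tested.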

How the data were processed

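Per the labels' protocols, RNA of C2C12 cells was treated with 5NIA or DMSO after extraction, and gene-specific reverse transcription and PCR products went to MiSeq sequencing. The authors' profiles hold, per the file headers, mutation counts and effective depths for each residue, mutation rates as a fraction, and a normalised reactivity, which is a score with a standard error. Tested on the files, the score equals the 5NIA minus the DMSO rate times 1 factor per profile. The deposited pairing files give −log10 of pair probabilities. The mutation counter and the folding program, with their settings, are not given in the sources used here.

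From these files, residues of the deletion were renumbered to the spliced RNA, and upper-case residues with depths of at least 1000 were kept. Reactivity scores were tested with limma 3.58.1 (eBayes with a trend, Benjamini-Hochberg over 434 residues), with edgeR 4.0.16 as an alternative. Simulations of the same layout covered 434 residues with 50 residues changed. In them limma recovered 30% of shifts of 0.5 (0 false calls) and 96% of shifts of 1 (10 false calls). edgeR recovered 48% of 2-fold (3 false) and 100% of 4-fold changes (6 false). The limma runs drew normal noise with a spread pooled by reactivity level. The edgeR runs gave both spliced pairs the same rates and a preset dispersion. They therefore do not show recovery with replicates that differ as the observed ones do. Pairing models of the replicates were averaged. ViennaRNA 2.7.2 refolding used RNAfold with Deigan pseudo-energies (slope 1.8, intercept -0.6), which take negative reactivities as missing. Named residues were those past the size rule, up to 10 in each direction, with those near the deletion; named helices were those removed, lost or new and the longest kept ones. The members and lists were chosen with earlier results of these data known. Standard errors cover counting error only, and reads carry no molecular identifiers. The spliced in-cell and genomic libraries were not used here.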

Additional observations from a re-analysis of the deposited data

Results flagged for a closer look

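At 1 residue of the CH1 deletion nearly every read differed from the deposited sequence, in the primer site that the comparison leaves out. The deposited sequences differ there by C58A, positions counted from 1 at the 5′ end of the spliced RNA, with the spliced base first and that of the deletion after it. The mutation rate at this residue was 99.8% in the 5NIA library (48171 of 48283 reads) and 99.95% in the DMSO library (66489 of 66520). In the spliced replicates it was 0.625% and 0.636% with 5NIA and 0.0337% and 0.0627% with DMSO. The deposited folding listed 42 pairs for it, all with U, at a summed probability of 0.000174, and a refold with the spliced base there again held 0 lost and 6 new helices. Which base the RNA carried was not tested.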

How the results depend on the processing

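The residues past the size rule numbered 62 with a minimum difference of 0.3 and 0 with 1.0, 12 without spliced replicate 2 and 25 without replicate 1, and the other 7 alternatives gave 11 to 14. Signs of the 14 named residues did not turn in 109 recomputed values, but only 1 met the rule in every one. limma called 0 residues without the trend and 0 with reactivity held to 0 to 2, edgeR 1, and the other alternatives 23 to 30, of which the robust fit split into 15 higher and 15 lower. The mean absolute reactivity difference beyond 50 residues was 0.137 with reactivity held to 0 to 2, and without 1 spliced replicate it ran from 0.149 to 0.213 near and from 0.153 to 0.168 beyond. The mean absolute pairing change beyond 50 residues was 0.133 with the joined model, 0.140 to 0.141 without 1 replicate and 0.111 with near set to 100 residues. With that setting the signed change near was -0.0752, and over upper-case residues alone the absolute change near was 0.249. Without 1 replicate the signed change was -0.151 to -0.141 near and -0.0118 to -0.00238 beyond, and the absolute change near 0.284 to 0.333. Lost helices numbered 14 at a probability of 0.3, 4 with at least 4 stacked pairs, and 10 to 12 without 1 replicate (kept 13 to 15, new 8 to 10). At 0.9 there were 3 lost, 7 kept and 5 new. The helices also moved on refolding, which was added after seeing the data. Exchanged reactivities gave 11 lost, spliced reactivities on both sequences 0 lost, 20 kept and 0 new, and the deletion's on both 4 lost and 4 new. No reactivities gave 2 lost, 24 kept and 1 new, and spliced reactivities at residues 35 to 59 gave 5 new. The alternatives' causes were not tested. No paired analysis was possible because the CH1 deletion has 1 profile. The primer sites, not depth, set which residues were used, and the count of profiles limits the tests.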
